A study of Mus musculus with 4 samples.

Results

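Neurotransmitter receptor genes encode the proteins through which neurons receive glutamate, GABA, glycine and acetylcholine. They were taken as the RefSeq protein-coding genes of the mm10 build whose symbols name a subunit of the AMPA, delta, kainate or NMDA glutamate receptors, a metabotropic glutamate receptor, a GABA-A or GABA-B receptor, a glycine receptor, or a nicotinic or muscarinic acetylcholine receptor. The symbols gave 74 genes of 21887 protein-coding genes on chromosomes 1 to 19, X and Y. By class these were 4 AMPA, 3 delta, 5 kainate, 7 NMDA and 8 metabotropic glutamate genes, 19 GABA-A, 2 GABA-B, 5 glycine, 16 nicotinic and 5 muscarinic genes. Of them, 58 encode subunits of ligand-gated channels and 15 encode G protein-coupled receptors. The remaining gene, Grid2ip, was taken in by its symbol but encodes a scaffold protein of delta receptor synapses.

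The data were 4 maps of H3K27me3, the trimethylated form of lysine 27 of histone H3, made by CUT&Tag, in which an antibody brings a transposase to the mark so that the DNA around it is cut and tagged. The cells were sorted germinal center B cells from the spleens of C57BL/6 mice, which the series title calls pre-plasma. The groups were 2 mice labelled KO, with a knockout of Kdm6b in B cells, and 2 wild type mice (WT), all immunised with sheep red blood cells, with a second injection on day 5 and the end point on day 12. The sources used here do not give the Cre driver, the deleted part of Kdm6b, the sort markers or the sex of the mice. Genotype was taken from the labels, since a list of H3K27me3 peaks holds no measure of whether Kdm6b was deleted.

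H3K27me3 is written by the Polycomb complex PRC2 and is found over the starts and bodies of genes that a cell lineage keeps silent, often at stretches rich in CG dinucleotides. Kdm6b, also called JMJD3, is an enzyme that removes methyl groups from this lysine. Glutamate, glycine, GABA and acetylcholine act through channels built from several subunits or through G protein-coupled receptors, and most of these genes are best known from neurons and muscle. The B cells were therefore a lineage in which the mark at genes of other tissues could be described.

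The values are covered shares, the percent of bases lying under the authors' peaks. Each gene was given a gene-end window, which ran 2 kb either side of whichever gene end had the higher mean share over all 4 libraries, so 4 kb in all. Where both ends had the same mean, the end of lower coordinate was used. A window of which 25% or more lay under peaks counted as marked in that library. The deposited lists held 80639 and 90417 peaks over 144 and 236 Mb in the KO libraries, and 87486 and 82292 peaks over 213 and 101 Mb in the WT libraries. Within each genotype, covered length thus differed more than the genotype means did, and KO replicate 2 and WT replicate 1 had the longer lists. A covered share cannot tell a mark present in fewer cells from a weaker mark in each cell. The lists do not give the number of reads, so no counting interval is given, and n is 2 mice per genotype throughout.

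The germinal center identity was checked at 20 B-cell genes, which should lack a repressive mark in these cells. Their gene ends were marked in 2 and 3 cases in the KO libraries and in 1 and 0 in the WT libraries, with none marked in all 4. Bcl6, Mef2b, Mef2c, S1pr2 and Cd22 were at 0% in every library, and the highest values were 47.8% for Spib in WT replicate 1 and 41.9% for Ms4a1 in KO replicate 2. Of the 20, 16 (80%) were marked in no library, against 49.1% of all genes. No peak touched the body or windows of 5 (25%), against 33.1% of all genes. Marker genes of other cells were marked in all 4 libraries in 8 of 14 T-cell (57.1%), 7 of 12 myeloid (58.3%) and 3 of 8 erythroid genes (37.5%). They were so marked in 1 of 6 NK (16.7%) and 2 of 6 plasma-cell genes (33.3%), against 24.1% of all genes. Of 39 Hox genes, classical Polycomb targets, 38 were marked in all 4. The part of other cell types in the receptor values below was not tested.

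Receptor gene ends were marked more often than protein-coding gene ends at large, in every library. In the KO libraries 39 and 43 of the 74 were marked (52.7% and 58.1%), and in the WT libraries 43 and 31 (58.1% and 41.9%). Among all 21887 genes the shares were 33.5% and 46.3% in KO and 40.8% and 26.3% in WT. The receptor mean was 55.4% ± 3.82 in KO and 50% ± 11.5 in WT (SD, n = 2 each). The same 31 genes, 41.9% of the set, were marked in all 4 libraries, against 24.1% of all genes. A further 19 (25.7%) were marked in 1 to 3 libraries, against 26.8% of all genes, and 24 (32.4%) in none, against 49.1%. No peak touched the body or either window of 20 receptor genes (27%), against 33.1% of all genes.

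Marking divided the classes unevenly. It was found in all 4 libraries at both GABA-B genes, 6 of 7 NMDA, 3 of 5 kainate, 2 of 3 delta, 3 of 5 muscarinic, 9 of 16 nicotinic and 4 of 8 metabotropic glutamate genes. It was found in all 4 at 1 of 4 AMPA genes, 1 of 19 GABA-A genes and 0 of 5 glycine receptor genes. Of the 20 genes without any peak, 10 were GABA-A subunits, among them Gabra2, Gabra3, Gabra6, Gabrb2, Gabrg1, Gabrg3, Gabre and Gabrp. The others were Glra2, Glra3, Glra4, Grik1, Grik2, Gria4, Grin2b, Grm7, Chrna6 and Chrnb3. Ligand-gated subunits were marked in all 4 libraries in 21 of 58 cases (36.2%) and G protein-coupled receptors in 9 of 15 (60%).

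**Figure D1:**
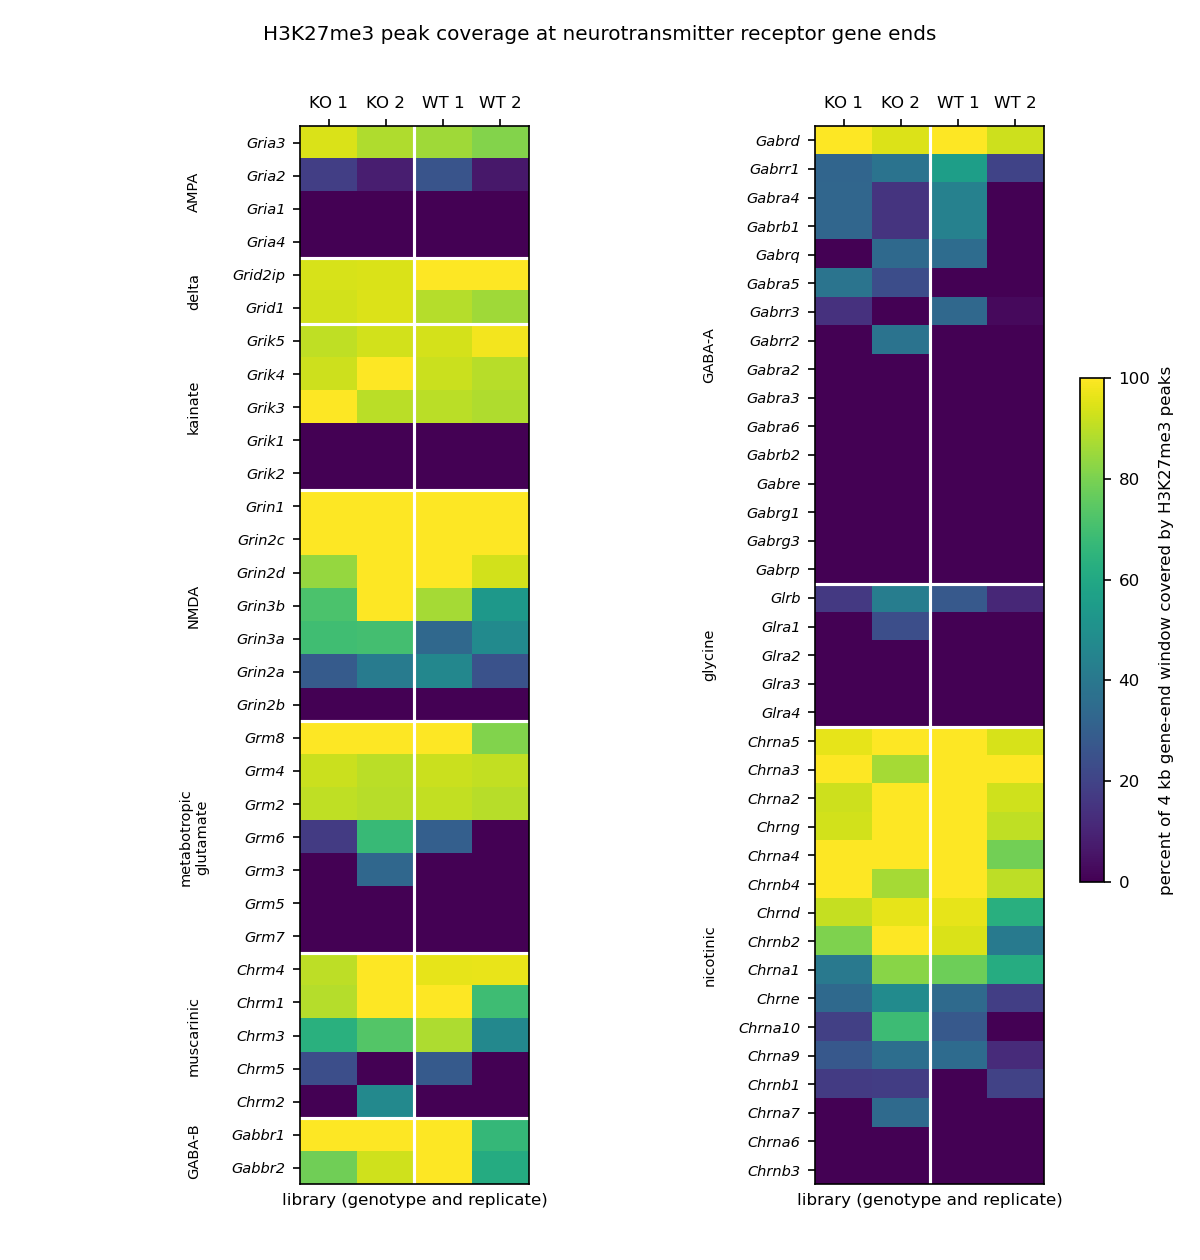
Percent of the 4 kb gene-end window covered by H3K27me3 peaks for 69 of the 74 genes (rows, grouped by receptor class and sorted by mean within a class) in the 2 KO and 2 WT libraries (columns). Every block but the glycine block holds at least 1 row above 80% in most libraries, and many of the GABA-A rows are at 0% throughout.

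The DNA at the starts was read from the RefSeq promoter table of GRCm38.p6, which held 53 of the 74 genes and gives 250 bases before to 50 bases after an annotated start. CG dinucleotides were counted because Polycomb marking is known at CG-rich DNA. The motif searched was CG, which is the same on both strands and cannot overlap itself. It occurred at least once in 52 of the 53 receptor promoters (98.1%) and in 16582 of the 17492 promoters in the table (94.8%), so its number per promoter was compared instead. The 6 sequences below are shown because they span the combinations seen, from CG-rich and covered to CG-poor and free of peaks. They are printed 5′ to 3′ on the strand of the gene, in lower case with every CG in capitals. They lie at chr2:25319138-25319437 (Grin1, minus strand), chr4:46991665-46991964 (Gabbr2, minus), chr4:125490446-125490745 (Grik3, plus), chr1:87205561-87205860 (Chrng, plus), chr10:49788705-49789004 (Grik2, minus) and chr11:42321023-42321322 (Gabra6, minus).
Grin1: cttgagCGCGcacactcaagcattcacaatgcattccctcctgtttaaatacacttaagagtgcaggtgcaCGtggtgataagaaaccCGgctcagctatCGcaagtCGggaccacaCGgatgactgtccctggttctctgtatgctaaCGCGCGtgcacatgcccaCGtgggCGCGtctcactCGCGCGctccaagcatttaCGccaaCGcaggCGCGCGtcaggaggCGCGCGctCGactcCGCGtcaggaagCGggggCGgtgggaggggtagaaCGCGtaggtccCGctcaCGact
Gabbr2: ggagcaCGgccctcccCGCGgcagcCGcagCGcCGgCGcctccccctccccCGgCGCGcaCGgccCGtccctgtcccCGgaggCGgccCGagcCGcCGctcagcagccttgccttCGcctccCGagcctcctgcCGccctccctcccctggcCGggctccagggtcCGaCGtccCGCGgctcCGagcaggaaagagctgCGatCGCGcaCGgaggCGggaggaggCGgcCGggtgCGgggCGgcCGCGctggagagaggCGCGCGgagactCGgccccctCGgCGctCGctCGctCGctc
Grik3: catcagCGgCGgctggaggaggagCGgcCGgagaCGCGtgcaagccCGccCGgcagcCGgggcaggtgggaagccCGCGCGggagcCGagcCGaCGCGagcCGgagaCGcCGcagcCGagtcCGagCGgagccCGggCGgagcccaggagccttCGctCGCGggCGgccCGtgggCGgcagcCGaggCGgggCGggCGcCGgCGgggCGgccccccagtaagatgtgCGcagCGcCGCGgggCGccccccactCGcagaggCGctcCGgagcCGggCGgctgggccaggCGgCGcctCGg
Chrng: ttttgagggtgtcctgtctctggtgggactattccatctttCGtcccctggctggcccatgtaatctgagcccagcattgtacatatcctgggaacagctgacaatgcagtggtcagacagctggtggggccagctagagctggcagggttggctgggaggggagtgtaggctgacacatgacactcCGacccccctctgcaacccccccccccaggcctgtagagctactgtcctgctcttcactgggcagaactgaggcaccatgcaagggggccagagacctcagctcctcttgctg
Grik2: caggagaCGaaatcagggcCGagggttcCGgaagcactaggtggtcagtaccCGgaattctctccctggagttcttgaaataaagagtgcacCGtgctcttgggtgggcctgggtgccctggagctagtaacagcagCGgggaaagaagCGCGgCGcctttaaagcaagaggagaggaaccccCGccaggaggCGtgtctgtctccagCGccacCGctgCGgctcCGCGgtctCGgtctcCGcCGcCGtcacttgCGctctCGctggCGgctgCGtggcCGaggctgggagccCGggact
Gabra6: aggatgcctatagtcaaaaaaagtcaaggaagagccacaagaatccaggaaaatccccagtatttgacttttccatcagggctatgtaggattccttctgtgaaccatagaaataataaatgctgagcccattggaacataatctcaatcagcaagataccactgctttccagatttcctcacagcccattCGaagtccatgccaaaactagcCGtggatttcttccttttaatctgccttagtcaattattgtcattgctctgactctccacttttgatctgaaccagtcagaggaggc

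Grin1, which encodes the subunit that every NMDA receptor needs, has 33 CG in these 300 bases, and peaks covered all of them in all 4 libraries. Gabbr2, the GABA-B subunit that couples to G proteins, has 46 CG and showed a gap. Peaks covered 83.1% and 82.6% of the 4 kb around its start in KO and 81.1% and 82.5% in WT, but 0% of the 300 bases in every library. Grik3, a kainate receptor subunit, has 50 CG. Its 4 kb share was 100% and 89.7% in KO and 89.5% and 87.9% in WT, while the 300 bases were covered fully in KO replicate 1 and not at all in the other 3 libraries. Grik4, another kainate subunit with 42 CG, had 14.7% and 100% of its 300 bases covered in KO and 5.67% and 0% in WT, within a 4 kb window covered to at least 89.6% in every library. At the 3 most CG-rich receptor promoters, peaks thus stood on both sides of 300 bases that were wholly or mostly outside peaks in at least 3 of the 4 libraries.

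Coverage did not follow CG number gene by gene. Chrng, which encodes the fetal gamma subunit of the muscle nicotinic receptor, has 2 CG and had its 300 bases fully covered in all 4 libraries. Grik2 with 26 CG and Gabra2 with 25 CG had no peak in any library. Chrna7, the subunit that forms nicotinic receptors on its own, has 35 CG and had 0% and 34.4% of the 4 kb around its start covered in KO and 0% in both WT libraries. Gabra6, a GABA-A subunit known from cerebellar granule cells, has 2 CG and was at 0% throughout.

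Across the 53 receptor starts, the 4 kb window at the annotated start was marked in all 4 libraries at 22 (41.5%), in 1 to 3 at 12 and in none at 19, against 20.7% marked in all 4 over the 17492 starts. The median number of CG per 300 bases was 18 for starts marked in all 4, 11.5 for those marked in 1 to 3 and 9 for those marked in none. Over all genes the medians were 18, 16 and 8. With 15 or more CG, 12 of 22 receptor starts (54.5%) were marked in all 4 libraries, against 25.7% of all starts with that many. With 5 to 14 CG the shares were 44.4% of 18 receptor starts and 24.9% of all such starts, and with 0 to 4 CG they were 15.4% of 13, which is 2 genes, and 9.31%. The difference in the range of 0 to 4 CG rests on these 2 genes, and whether CG number accounts for the receptor share was not tested. Spearman's rho between CG number and the mean covered share was 0.363 over the 53 receptor starts and 0.286 over all 17492, as a description across genes that share libraries and base composition.

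**Figure D2:**
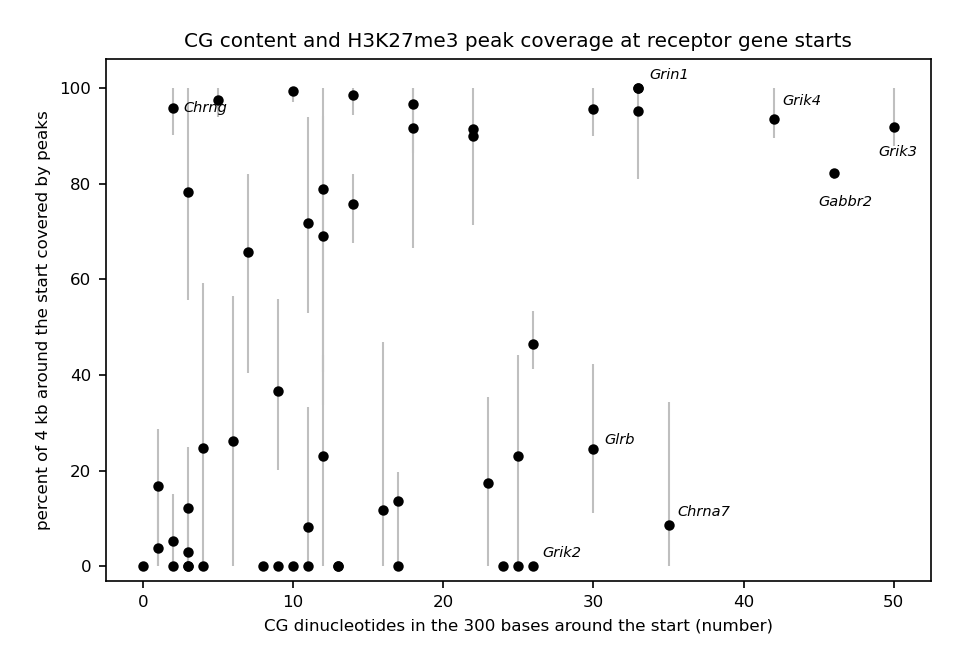
Number of CG dinucleotides in the 300 promoter bases (horizontal axis) against the percent of the 4 kb around the annotated start covered by peaks (vertical axis) for 53 receptor genes. Points are means over the 4 libraries and grey lines run from the lowest to the highest library, with Gabbr2, Grik3 and Grik4 at the upper right and Grik2 at 0% despite 26 CG.

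Coverage was centred just inside the gene. Counted every 250 bp along the 53 genes with a strand, the share of receptor genes under a peak was highest 500 bp downstream of the start in KO, at 43.4% and 56.6%. In WT it was highest at 250 bp in replicate 1, at 50.9%, and at 500 bp in replicate 2, at 41.5%. It was lower at 10 kb upstream, where it was 9.43% and 17.0% in KO and 15.1% and 1.89% in WT. At 10 kb downstream it was 18.9% and 34.0% in KO and 28.3% and 20.8% in WT. Over all 17492 genes the shares at that distance downstream were 9.64% and 16% in KO and 13.7% and 6.81% in WT. In every library the receptor share was thus the higher at 10 kb downstream, a distance that lies beyond the gene for the 5 of the 53 under 10 kb long. How many of the 17492 are under 10 kb long was not counted, and the part of gene length in this comparison was not tested. At 10 kb upstream the receptor share was the lower in every library, since all genes had 13.9% and 21.8% there in KO and 19.4% and 9.51% in WT. The order upstream changed with distance. At 5 kb upstream the receptor share was the higher in every library, at 20.8% and 32.1% in KO and 26.4% and 22.6% in WT. All genes had 15.4% and 23.5% there in KO and 20.9% and 10.7% in WT.

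**Figure D3:**
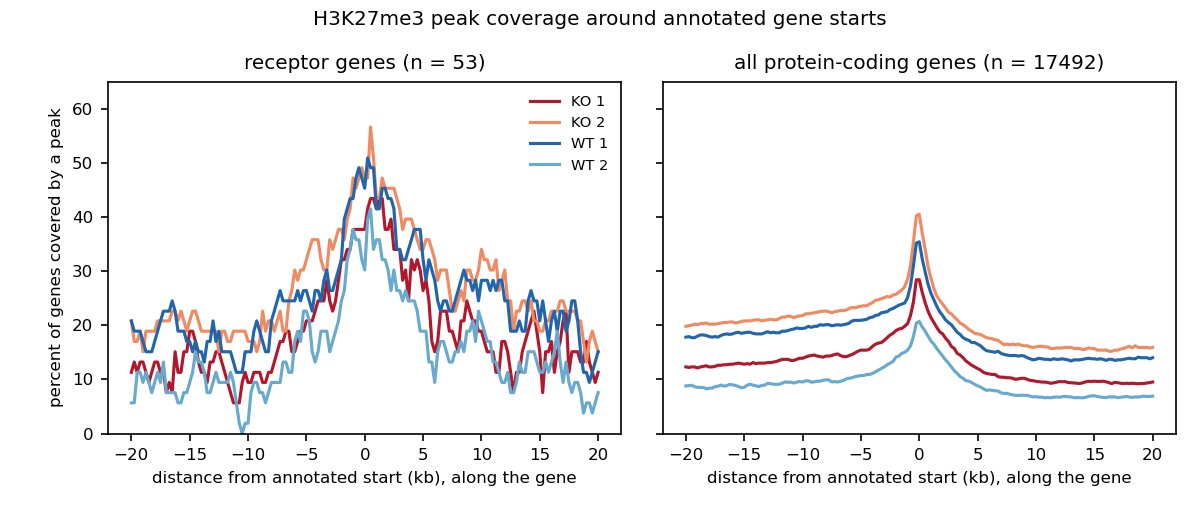
Percent of genes lying under an H3K27me3 peak at each distance from the annotated start, for 53 receptor genes (left) and all 17492 genes with a start (right), with a line per library. The receptor curves reach 41.5% to 56.6% close to the start, and the order of the libraries follows their covered lengths in the panel of all genes.

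NMDA receptors need glutamate and a co-agonist together, and 6 of their 7 genes were marked in every library. The gene ends of Grin1 (chr2:25291177-25319187) and Grin2c (chr11:115249169-115267297), a glutamate-binding subunit known from cerebellum, were covered to 100% in all 4 libraries. The mark also filled their bodies. It covered 89.7% and 89.4% of the Grin1 body in KO and 88.5% and 69.2% in WT, and 97.8% and 100% of the Grin2c body in KO and 98.8% and 89.9% in WT. Grin2d, another glutamate-binding subunit, had the most body bases shared by all 4 libraries, 24475 bp, with 18725 bp for Grin1 and 15904 bp for Grin2c. Grin2a (chr16:9567901-9996083) lay at the threshold, with a gene-end share of 28.8% and 41.6% in KO and 46.1% and 25.0% in WT. Grin2b, its close relative in forebrain receptors, had no peak in body or windows. The glycine-binding subunits Grin3a and Grin3b were marked in all 4 libraries, and Grin3b had 71.8% and 99.9% in KO and 86.6% and 53.2% in WT.

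Among AMPA subunits, which form the fast glutamate channels, only Gria3 on the X chromosome was marked at its gene end in all 4 libraries. Its share was 94.5% and 88.0% in KO and 85.9% and 81.3% in WT. Gria2, the subunit that limits calcium entry, had 18.7% and 8.33% in KO and 25.9% and 6.48% in WT at its outer gene end. At its annotated start, which lies inside that end, the share was 53.5% and 43.1% in KO and 47.8% and 41.3% in WT, so it was marked there in all 4. Gria1 had 0% in every gene-end window and Gria4 had no peak.

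Kainate subunits were either marked throughout or free of peaks. Grik5 and Grik4, the high-affinity subunits that need a partner, and Grik3 had gene-end shares of at least 87.9% in every library. For Grik5 the values were 90.5% and 93.3% in KO and 93.4% and 98.2% in WT. Grik1 and Grik2, which form channels on their own as Grik3 does, had no peak. Of the delta receptors, which act as synaptic adhesion proteins, Grid1 had 93.2% and 94.7% in KO and 88.9% and 85.7% in WT. The scaffold gene Grid2ip had 93.9% and 94.5% in KO and 100% in both WT libraries, and leaving it out left 30 of 73 genes marked in all 4.

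Metabotropic glutamate receptors are G protein-coupled and fall into groups that differ in the second messenger used. Grm2, Grm4 and Grm8, which lower cyclic AMP as Grm3, Grm6 and Grm7 also do, were marked throughout, and Grm8 had 100% in both KO libraries against 100% and 81.1% in WT. Grm4 had 92.0% and 89.7% in KO and 91.8% and 90.8% in WT. Grm5, which acts through phospholipase C, had no gene-end coverage but 2247 bp of its body under a peak in all 4 libraries, and Grm7 had no peak. Grm3 was marked in KO replicate 2 alone, at 33.4%, and Grm6, known from retinal bipolar cells, had 17.2% and 67.2% in KO and 30.2% and 0% in WT.

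Both genes of the GABA-B receptor, a G protein-coupled pair, were marked in every library. Gabbr1 (chr17:37045966-37074305), which binds GABA, had 100% in both KO libraries, against 100% and 66.5% in WT. Gabbr2 had 78.5% and 92.9% in KO and 100% and 61.4% in WT at the gene end with the higher mean, which is its 3′ end. The GABA-A channel genes were seldom marked. Gabrd (chr4:155384979-155398098), the subunit of extrasynaptic receptors, was the only one of 19 marked in all 4 libraries, with 100% and 94.7% in KO and 100% and 92.2% in WT. Peaks lay over 68.0% and 93.4% of its body in KO and over 92.5% and 31.1% in WT. The next highest was Gabrr1, a rho subunit known from retina, with 32.5% and 38.0% in KO and 56.0% and 20.2% in WT. Across the class, 6 and 4 gene ends were marked in KO and 6 and 1 in WT.

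No glycine receptor gene was marked in all 4 libraries. Glrb, the beta subunit that anchors the receptor to gephyrin, had 16.5% and 42.4% in KO and 27.8% and 11.2% in WT. Glra1 reached 24.2% in KO replicate 2, just under the threshold, and 0% in the other libraries, and the other alpha subunits had no peak.

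Nicotinic receptors are acetylcholine-gated channels of muscle, ganglia and brain. Among the subunits of muscle, Chrng, Chrnd and Chrna1 were marked in all 4 libraries. Chrna1, which carries the acetylcholine site, had 40.4% and 82.1% in KO and 78.0% and 62.1% in WT. Chrne, the epsilon subunit that replaces gamma in adult muscle, was marked in 3 libraries, with 34.1% and 48.3% in KO and 34.4% and 18.7% in WT. This window is at its 3′ end. At its 5′ end Chrne had 0% and 12.9% in KO and 28.2% and 25.2% in WT, so it was marked there in WT alone. That difference was -20.3 points (SE 8.44, limma adjusted p = 0.954). Chrnb1 stayed below the threshold, with 17.4% and 18.2% in KO and 0% and 19.7% in WT. Among brain and ganglion subunits, Chrna4 (chr2:181022311-181043579) and Chrnb2, partners in the main high-affinity receptor of brain, were both marked throughout. Chrna4 had 100% in both KO libraries, against 100% and 78.6% in WT, and Chrnb2 had 80.5% and 100% in KO, against 94.2% and 40.7% in WT. Chrna6 and Chrnb3, known from dopamine neurons, had no peak. Chrna9 and Chrna10, partners in inner-ear hair cells, were marked in 3 and 2 libraries. Both windows are at the 3′ end of the gene, and neither gene was marked at its 5′ end. There Chrna9 had 15.7% and 0% in KO and 0% in both WT libraries. Chrna10 had 0% in both KO libraries there and 0% and 15.3% in WT. Around the annotated start inside Chrna9 the share was 0% and 48.8% in KO and 56.5% and 0% in WT.

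Muscarinic receptors are the G protein-coupled acetylcholine receptors. Chrm4 had 90% and 100% in KO and 96.1% and 96.6% in WT, and Chrm1 had 89.0% and 100% in KO and 100% and 69.1% in WT. Chrm3 was marked throughout as well. Chrm2, the receptor of heart, was at 0% and 46.9% in KO and 0% in both WT libraries, and Chrm5 had 24.2% and 0% in KO and 28.5% and 0% in WT.

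Genes marked in all 4 libraries lay under long peaks, as the rule for marking in part requires. The same lengths and ranks were not taken over all protein-coding genes marked in all 4. Joined across libraries, the region at the gene end had a median of 12071 bp, from 2956 bp at Grin3a to 28773 bp at Grin2c. For genes marked in 1 to 3 libraries the median was 1878 bp. The longest peak over the body or windows of a gene marked in all 4 had a median length of 5925 and 10381 bp in KO and 8698 and 4419 bp in WT. By the authors' highest signal of each peak, the strongest peak in the gene-end window ranked at a median percentile of 96.8 and 96.7 of its own list in KO and 96.6 and 91.4 in WT. For genes marked in 1 to 3 libraries, with a peak in the window, these medians were 41.8 and 39.3 in KO and 59.1 and 49.3 in WT. At 11 of the 31 genes the region also lay over another gene, and for those the mark cannot be assigned to that receptor gene alone. In some cases the other gene was itself a receptor gene. Chrnd and Chrng shared a region of 12071 bp, and Chrna3 and Chrnb4 shared a region of 24617 bp. The 31 genes are therefore not 31 separate regions.

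The mark filled some genes and touched only an end of others. Mean body coverage over the 4 libraries was above 50% in 14 of the 31 genes marked in all 4 and below 5% in 7, among them Grid1, Grm8, Chrm3, Grin2a, Gria3 and Grin3a. These 7 genes are long, from 184 kb for Grin3a to 860.0 kb for Grm8. Median gene length was 28.3 kb for receptor genes marked in all 4 libraries, 70.1 kb for those marked in 1 to 3 and 164 kb for those marked in none. Over all protein-coding genes the order was the reverse, at 22.0, 18 and 14.7 kb. Spearman's rho between length and mean gene-end share was -0.329 over the 74 receptor genes and 0.171 over all 21887, as a description across genes.

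Coverage ranged widely among clusters of receptor genes. There were 10 clusters with less than 200 kb between neighbouring members, holding 25 of the 74 genes. In the nicotinic cluster of Chrna5, Chrna3 and Chrnb4 (chr9:54980827-55048953, 68.1 kb), which encodes subunits of ganglion receptors, peaks covered 65.7% and 86.5% of the span in KO and 84.7% and 50.4% in WT. In the muscle cluster of Chrnd and Chrng (chr1:87190597-87211835) they covered 67.5% and 92.2% in KO and 87.8% and 57.3% in WT. The GABA-A rho cluster of Gabrr2 and Gabrr1 (chr4:33057712-33163588) had 14.9% and 42.4% in KO and 30.3% and 13.0% in WT. All 3 were higher in KO replicate 2 and WT replicate 1, the libraries with the longer lists.

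Other clusters had little or no coverage. No peak of any library touched Gabra6 (chr11:42306437-42321072) or Gabrb2 (chr11:42419515-42632591). None lay in the 345 kb of Gabrg1 and Gabra2 (chr5:70751047-71095849) or in the 45.2 kb of Chrnb3 and Chrna6 (chr8:27368711-27413944). Gabra4 and Gabrb1 (chr5:71569734-72149572) overlap at their ends and shared a gene-end window, with 33.2% and 15% in KO and 44.1% and 0% in WT. Peaks covered 1.32% and 1.17% of the span of Gria2 and Glrb in KO and 1.04% and 1.01% in WT. In the X-linked cluster of Gabre, Gabra3 and Gabrq they covered 0% and 0.233% in KO and 0.242% and 0% in WT.

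**Figure D4:**
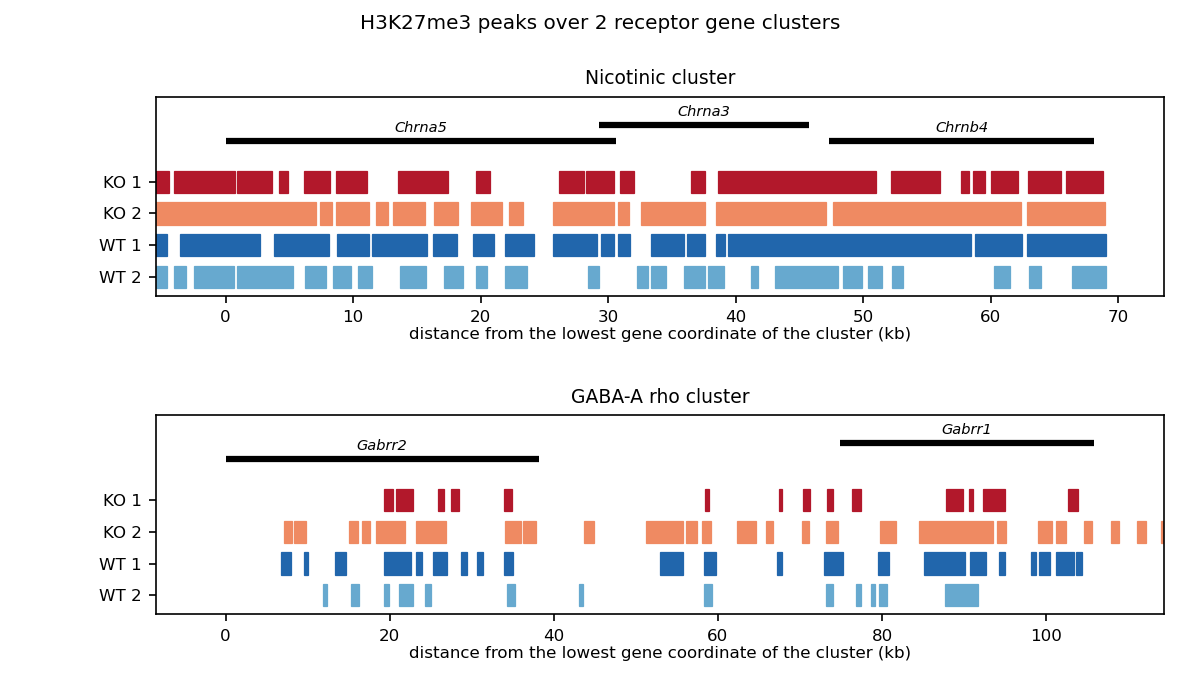
H3K27me3 peaks of each library (coloured blocks, KO above WT) along 2 receptor gene clusters, with genes as black bars and distance in kb from the lowest gene coordinate. Peaks cover 50.4% to 86.5% of the nicotinic span and 13.0% to 42.4% of the rho span.

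The study's question was how H3K27me3 differs when Kdm6b is lost, and for receptor genes no difference passed the test. Of the 74 gene ends, 52 had coverage in any library and entered limma with all 13844 such gene ends. None was called at a Benjamini-Hochberg adjusted p of 0.05 in either direction, against 0 (0%) of all gene ends in each direction, and the lowest adjusted p of a receptor was 0.895. Before adjustment, 3 were higher in KO at p under 0.05, Grin3a and Gabra5 among them, and 0 were lower, against 490 (3.54%) and 66 (0.477%) of all gene ends. Of these 3, 2 lay under the same peaks, so they are not separate loci. The median difference, KO minus WT, was 5.26 percentage points over the 52 receptor gene ends and 6.61 over all 13844. The KO mean was higher at 33 of the 52 (63.5%), lower at 17 and equal at 2, while it was higher at 70.5% of all gene ends. The order of these medians and their size depended on the libraries and the window. The receptor median was 8.87 points without KO replicate 1, against 13.3 over all gene ends, and 2.11 without KO replicate 2, against 0. It was 12.1 without WT replicate 1, against 14.1, and -1.01 without WT replicate 2, the shortest list, against 0. With 5 kb either side it was 7.01, against 5.03, and with both ends averaged 4.84, against 4.68.

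Gabra5, the GABA-A alpha5 subunit known from hippocampus, had the largest difference. Its share was 38.5% and 23.5% in KO and 0% in both WT libraries. The groups did not overlap, and the difference at Gabra5 was 31.0 points (SE 7.03, limma adjusted p = 0.895). The region under the peaks also lay over another gene, so the mark cannot be assigned to Gabra5 alone. The peaks were short, with 901 bp for the longest in KO replicate 1 and 939 bp in KO replicate 2, and with lists shortened to equal covered length the gene end had no coverage left. The window lies at the outer end of the gene, and the 4 kb around the start that the promoter table gives inside the gene was at 0% in all 4 libraries.

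At Grin3a the shares were 69.2% and 70.3% in KO and 33.6% and 47.9% in WT. Here too the groups did not overlap, with a mean of 69.8% ± 0.760 in KO and 40.7% ± 10.1 in WT (SD, n = 2 each). The difference was 29.0 points (SE 6.79, limma adjusted p = 0.895), and with windows of 1 kb either side it was 7.50 points. Chrna10 (19% and 68.6% in KO, 28.1% and 0% in WT) and Grm6 also differed by more than 25 points in their means, by 29.8 and 27.1, but KO and WT values overlapped at both. Their differences were 4.95 and 2.11 points without KO replicate 2. The Chrna10 window is at the 3′ end of the gene.

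Differences in the other direction were smaller. The KO minus WT mean was -10.9 points for Gabrr3 (14.4% and 0% in KO, 33.6% and 2.67% in WT), -8.79 for Chrna1, -6.76 for Chrna3, -5.81 for Grid2ip and -4.60 for Grin2d. At all but Grid2ip the genotypes overlapped, and each of these 5 turned positive under at least 1 other setting.

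The 2 KO values were higher than each WT value at 8 of the 52 tested gene ends (15.4%), against 14.4% of all, and lower than each at 2 (3.85%), against 2.26%. The 8 included Gabra5, Grin3a, Gria3, Grid1, Grik3 and Grik4, and the 2 were Grid2ip and Grik5. The number marked in both KO and neither WT library was 1 of 74 (1.35%), against 1.20% of all gene ends. None was marked in both WT and neither KO library, against 0.187% of all. These shares are near those of all genes. With a library left out, fewer values have to agree, and most of these counts grew for receptors and for all genes. The 8 became 30 of 52 (57.7%) without WT replicate 1, against 52.3% of all gene ends, and 23 of 52 (44.2%) without KO replicate 1, against 50.9%. The 2 became 13 (25%) without WT replicate 2, against 25.4%, and 7 of 47 (14.9%) without KO replicate 2, against 14.7%. They became 7 of 52 (13.5%) without KO replicate 1, against 3.81%. The 1 gene end marked in KO alone became 5 (6.76%) without KO replicate 1, against 8.55% of all, 3 (4.05%) without KO replicate 2, against 2.07%, and 4 (5.41%) without WT replicate 1, against 7.69%. Without WT replicate 2, 3 (4.05%) were marked in WT alone, against 2.85%.

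Bodies and far ends gave the same picture. Of 54 receptor bodies with coverage, limma called 0, against 2 (0.0145%) higher and 0 (0%) lower in KO of 13805 bodies, and at an unadjusted p under 0.05 it found 0 in either direction, against 1.56% and 0.340%. The median difference in body share was 0.897 points for receptors and 1.53 for all genes. The genotypes did not overlap, with KO higher, at 7 bodies (13.0%), against 12.3% of all, and with KO lower at 1, Chrm3 (1.85%), against 2.75%. Of 28 far ends tested, limma called 0, against 0 (0%) of 6947 in each direction. Grm4 and Chrm4 were higher in KO at an unadjusted p under 0.05, against 2.68% of all far ends, and none was lower, against 0.345%. Chrm4 had 57.7% and 82.6% of its far end covered in KO and 31.3% and 23.5% in WT (difference 42.7 points, SE 12.1, limma adjusted p = 0.954).

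Summed over the 14.1 Mb of receptor bodies, peaks covered 2.97% and 4.36% in KO and 4.21% and 2.25% in WT, against 6.16% and 10.1% in KO and 9.11% and 4.48% in WT for all genes. Receptor genes were thus marked at more of their ends but over less of their summed length than all genes. Long genes weigh most in that sum. Taken per gene, the median body share was higher for receptors than for all genes in every library. The receptor medians were 0.826% and 1.56% in KO and 1.09% and 0.86% in WT. Peaks of any library covered 814 kb of the receptor bodies, and 219 kb (26.9%) lay under a peak in all 4. The part under a peak in both KO and neither WT library was 21.8 kb (2.67%), and in both WT and neither KO library it was 9.73 kb (1.20%). This split was not made over the bodies of all genes, so it is no result about receptors.

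**Figure D5:**
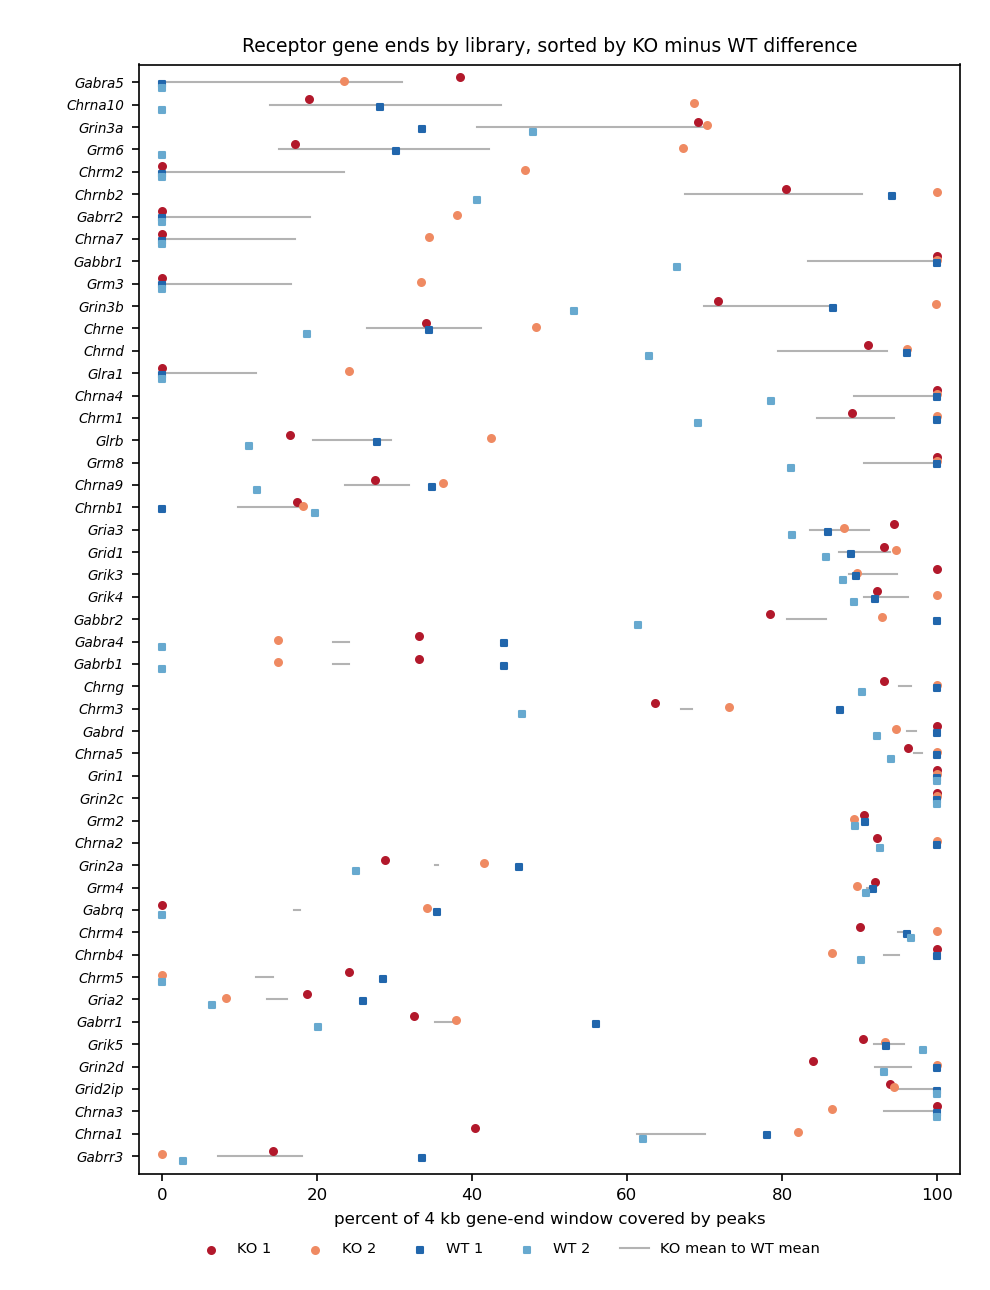
Percent of the 4 kb gene-end window covered in each KO library (circles) and WT library (squares) for 49 of the 52 receptor gene ends with coverage, sorted from the largest to the lowest KO minus WT difference. Grey lines join the KO and WT means, and the libraries of a genotype often lie as far apart as the genotypes do.

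Genes that serve the same synapses were marked too. Among 24 genes for making and moving glutamate, GABA, glycine and acetylcholine, 17 (70.8%) were marked in all 4 libraries. Over all genes the share was 24.1%. Gad2, which makes GABA, Slc32a1, which loads it into vesicles, and Slc18a3, which loads acetylcholine, were covered to 100% in all 4. Slc17a6, a vesicular glutamate transporter, was at 0% in all. Among 42 scaffold and accessory genes 25 (59.5%) were marked in all 4. Shisa7 and Nptx1 were at 100% in every library and Gphn, the gephyrin gene, at 0%. Limma called 0 of the 21 and 0 of the 36 that had coverage in either direction, against 0% of all gene ends, and their median differences were 3.29 and 11.1 points, KO minus WT.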

How the data were processed

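Per the labels' protocols, H3K27me3 was mapped by CUT&Tag in sorted splenic germinal center B cells, 1 library per mouse. The submitters' processing notes name Trim Galore 0.6.6, Bowtie2 2.4.2, SAMtools 1.11, SEACR, deepTools and mm10, without roles or settings. The authors deposited a peak list per library with 6 columns, of which positions were used for coverage and the signal (total and highest coverage of a peak, scale not given) to rank peaks within a list. Covered shares of gene bodies and of 4 kb windows were computed with Python 3.11.15, numpy 2.4.6 and pandas 2.3.3 on RefSeq GRCm38.p6 genes, the assembly that mm10 denotes. A start window was planned where strand was known for at least 80% of genes. It was known for 17492 (79.9%), so the gene end with the higher mean share was used. For receptors this was the 5′ end in 31 cases, the 3′ end in 22 and an end of unknown strand in 21. The lower coordinate was taken at ties, as at genes without any peak, so these counts do not show which end was more covered. KO was compared with WT by limma 3.58.1 (R 4.3.3; lmFit and eBayes, no trend), adjusted by Benjamini-Hochberg over all genes with coverage in any library, after a test on simulated data. The simulated spread was narrower than the median spread within a genotype at receptor gene ends, 10.9 points. The simulated shifts were larger than any receptor difference given here. That test therefore checked the code and does not show which differences could be found in these data. An exact permutation of 2 against 2 cannot go below p = 0.333. Named genes were those with the highest 2 and lowest 1 mean share in each class, the 5 largest differences each way, the 5 with the most body bases covered in all libraries, genes marked in 1 genotype, cluster members, genes without peaks, Chrna7, Chrnb1, Gabbr1 and Glrb. Other genes were named after their values were seen. Members and lists (B-cell and other cell markers, Hox, transmitter synthesis and transport, scaffold and accessory genes) were chosen with earlier results of these data known. Exons, introns and UTRs were not used here. Some members count in totals but are not reported by name here.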

Additional observations from a re-analysis of the deposited data

How the results depend on the processing

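No receptor gene end, body or far end was called by limma under any of the 34 alternative fits, which changed the window, the peaks, the filter, the scale, the covered length or the libraries used. The number marked in all 4 libraries, 31, was 25 to 35 of 74 over the other windows, thresholds and peak lists. It was 21 of 53 at the gene's 5′ end. With a library left out it was 31 to 34, but a count of genes marked in every library used can then only stay or rise. These counts under other settings are not given over all genes here. Of 113 values of named genes under alternatives, 99 kept their direction, 3 came to 0 and 11 turned. Some of the 99 could not turn. The setting without the filter leaves the difference of a gene as it was. The 5′ end is the main window itself for Gabra5, Grm6, Chrna1, Chrna3, Grid2ip and Grin2d. These genes were also picked for their large differences, so the 99 are no measure of how stable receptor values are.

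The number marked in both KO and neither WT library, 1, was 3 with 1 kb either side, 2 with 5 kb, 2 with marking at 10%, 0 at the 5′ end, 0 at equal covered length, 0 with the stricter peaks, and 1 to 5 with a library left out (5 without KO replicate 1). The number marked in WT alone, 0, was 1 at the 5′ end and 0 to 3 with a library left out (3 without WT replicate 2). The genotypes did not overlap, with KO higher, at 8 gene ends, at 14 with 5 kb, at 5 at the 5′ end and at 9 to 30 with a library left out (30 without WT replicate 1, 23 without KO replicate 1). KO was lower without overlap at 2, at 0 with 5 kb, at 1 with both ends averaged and at 3 to 13 with a library left out (13 without WT replicate 2). With 3 libraries such counts need fewer values to agree, and their shares of all gene ends are given above. For the other windows, thresholds and peak lists these counts were not made over all gene ends. They are therefore no result about receptors. The median difference, 5.26 points, was -1.01 without WT replicate 2 and 12.1 without WT replicate 1, and 1.46 at equal covered length. The causes were not tested.

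Values that turned were Chrna10 at -7.67 points at the 5′ end, Gabrr3 at 15.8 with 5 kb and 4.53 without WT replicate 1 (-26.4 without WT replicate 2), Chrna1 at 12.1 without KO replicate 1 (-29.6 without KO replicate 2), Chrna3 at 10.1 with 5 kb and 13.8 with both ends averaged, Grid2ip at 16.9 and 7.79 under the same settings, and Grin2d at 8.30 and 1.58 under them and 3.42 without KO replicate 1 (-12.6 without KO replicate 2). Without the filter on coverage, limma called 21 of all gene ends, 8 bodies and 11 far ends, against 0, 2 and 0. The 5′ end was added after the data were seen. No paired analysis was possible because the labels give no replicate numbers. The numbers used here follow the order of deposit within a genotype and only name a library. The number of mice limits the precision.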
